A study of Mus musculus with 6 samples.

Results

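The respiratory chain was followed over 94 nuclear genes, taken as every gene with a probe set of its own whose symbol begins with Nduf, Sdha to Sdhd, Uqcr, Cox4 to Cox8 or Atp5. They are 94 of 18193 genes and 185 of 45101 probe sets measured. By complex, 42 belong to complex I, 8 to complex II, 8 to complex III, 19 to complex IV and 17 to complex V. They were chosen by symbol, with earlier results of these data known, and include assembly factors that share a name stem with the subunits (Ndufaf, Sdhaf). A gene stands here by its brightest probe set, the one with the highest mean over the 6 arrays.

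The respiratory chain sits in the inner mitochondrial membrane and turns the electrons of food molecules into a proton gradient. Complex I takes electrons from NADH and complex II takes them from succinate, both handing them to ubiquinone. Complex III passes them on to cytochrome c, complex IV delivers them to oxygen, and complex V, the ATP synthase, lets the protons flow back to make ATP. A few subunits of the proton-pumping complexes are encoded in the mitochondrial genome, while the genes described here are nuclear. Resting B cells have a modest energy demand, and activated B cells enlarge their mitochondria.

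The RNA came from bone marrow B cells of C57BL/6 mice of both sexes, aged 8 to 12 weeks and given no treatment. Cells carrying CD3, Ter119, CD11b, DX5 or Gr1 were depleted, and cells with Igκ or Igλ light chains on their surface were then sorted. There were 3 groups of 2 arrays. TAK1-deficient Igκ+ cells have the genotype label mb-1/TAK1f/f, and both wild-type groups, Igκ+ and Igλ+, have the label mb-1/TAK1+/+, so that mb-1 is shared by every group. Map3k7 encodes TAK1, a kinase upstream of NF-κB and MAP kinase signalling. mb-1 is an older name of Cd79a, a gene active in B lineage cells, and the labels do not say in which form it was carried or how many animals were pooled. Nothing says that the arrays of a group stem from different animals, and the p-values then measure only how far these samples spread, which may be a technical spread. In sorted cells in bulk, fewer cells of a type and less RNA per cell cannot be told apart.

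Both TAK1-deficient arrays stood apart from the 4 wild-type arrays. The median signal over all probe sets was 323 to 324 on them and 44.9 to 59.1 on the others, the 95th percentile of unspiked control probe sets, which showed no sign of added target RNA, was 75.7 to 77.7 against 10.3 to 17.4, and the geometric mean of the spiked controls was 41197 to 47043 against 3985 to 4608. The ratio of the 3′ to the 5′ control probe set of Actb, a sign of RNA quality, was 4.18 to 6.28 against 1.25 to 1.58. The part of these array differences in the results below was not tested, and genotype and array quality cannot be told apart. Map3k7 itself had signals of 346 and 599 on the TAK1-deficient Igκ+ arrays, 2196 and 1805 on the wild-type Igκ+ arrays and 2149 and 1957 on those of wild-type Igλ+ cells, a log2 difference between the Igκ+ groups of -2.09 ± 0.27 (standard error; limma adjusted p = 0.00018). Whether this probe set lies in the deleted part is not given in the sources used here. Of the B cell markers, 9 of 9 with a probe set exceeded the unspiked controls on all arrays. This does not single out B cells. Plasma cell markers passed for 6 of 6 on all arrays too, and stromal and endothelial markers for 8 of 8 on both TAK1-deficient arrays. The summed signal of 10 granulocyte markers was 38324 on the first wild-type Igλ+ array and 338 to 8495 on the others.

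Promoters were examined because factors such as NRF1, GABP and YY1 are known to act on many respiratory chain genes. Of the 94 genes, 78 had an entry in the RefSeq promoter table, build GRCm38.p6, and the 250 bases before the start site were searched for short motifs on both strands. The core TGCGCA of the NRF1 site, which reads the same on both strands, was found in 16 of 78 genes (20.5%), against 7.36% of 27025 genes with such a window. CCGGAAG, a GABP (ETS family) core, was also found in 16 of 78 (20.5%) against 7.83%, and ATGGCG, a YY1 core, in 10 of 78 (12.8%) against 6.53%. None of the 3 motifs contains another. The median GC content was 57.6% in the windows of these genes and 52.4% in all windows, and how much of the difference follows base composition was not tested. TGCGCA occurred in 7 of 38 windows of complex I, 4 of 7 of complex II, 0 of 5 of complex III, 2 of 13 of complex IV and 3 of 15 of complex V genes. A match describes letters and is no evidence of binding.

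One promoter of each complex that held the motif is printed 5′ to 3′ on the strand of the gene, up to the base before the start site, to show where in the window the letters fall, with each TGCGCA in capitals. They are Ndufa9 (chr6:126849145-126849394, minus strand), Sdha (chr13:74350241-74350490, minus strand), Cox6a1 (chr5:115348959-115349208, minus strand) and Atp5pb (chr3:105959264-105959513, minus strand), all from RefSeq with GRCm38.p6 coordinates.
Ndufa9: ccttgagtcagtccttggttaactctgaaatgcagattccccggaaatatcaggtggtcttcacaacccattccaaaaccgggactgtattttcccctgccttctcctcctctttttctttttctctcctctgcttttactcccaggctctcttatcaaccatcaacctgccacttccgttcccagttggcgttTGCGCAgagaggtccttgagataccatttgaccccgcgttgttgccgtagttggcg
Sdha: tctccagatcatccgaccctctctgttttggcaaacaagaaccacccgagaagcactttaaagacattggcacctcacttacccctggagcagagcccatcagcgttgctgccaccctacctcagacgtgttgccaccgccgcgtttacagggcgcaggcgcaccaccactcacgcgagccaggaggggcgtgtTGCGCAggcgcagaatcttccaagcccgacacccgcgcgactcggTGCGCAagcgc
Cox6a1: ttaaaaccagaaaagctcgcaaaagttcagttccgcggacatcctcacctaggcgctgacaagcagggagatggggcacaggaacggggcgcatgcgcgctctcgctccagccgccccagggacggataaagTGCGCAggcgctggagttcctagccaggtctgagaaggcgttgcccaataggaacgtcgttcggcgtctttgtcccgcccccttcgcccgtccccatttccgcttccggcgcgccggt
Atp5pb: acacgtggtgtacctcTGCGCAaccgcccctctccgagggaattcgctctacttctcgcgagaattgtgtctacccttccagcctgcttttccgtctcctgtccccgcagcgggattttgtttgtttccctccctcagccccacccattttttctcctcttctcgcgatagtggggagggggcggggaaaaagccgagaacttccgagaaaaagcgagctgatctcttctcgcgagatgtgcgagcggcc
Counted back from the start site, the motif began at position -56 in Ndufa9, at -56 and -11 in Sdha, at -118 in Cox6a1 and at -234 in Atp5pb. The signals of these 4 genes are given with their complexes.

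The median signal of the members was 859 and 927 in TAK1-deficient Igκ+, 2543 and 2773 in wild-type Igκ+, and 2945 and 2422 in wild-type Igλ+ cells, so that both TAK1-deficient arrays lay below all 4 others. On all 4 wild-type arrays, 91 of 94 genes exceeded the unspiked controls. The members that were dim there were mostly the tissue isoforms of complex IV. For testing, dim genes were set aside, those whose mean log2 level was not above that of 40% of all probe sets. The filter left 88 members: 41 of complex I, all 8 each of complexes II and III, 14 of complex IV and all 17 of complex V. Ndufb4, Cox4i2, Cox8b, Ndufa4l2, Cox8c and Cox7b2 were among those set aside.

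**Figure D1:**
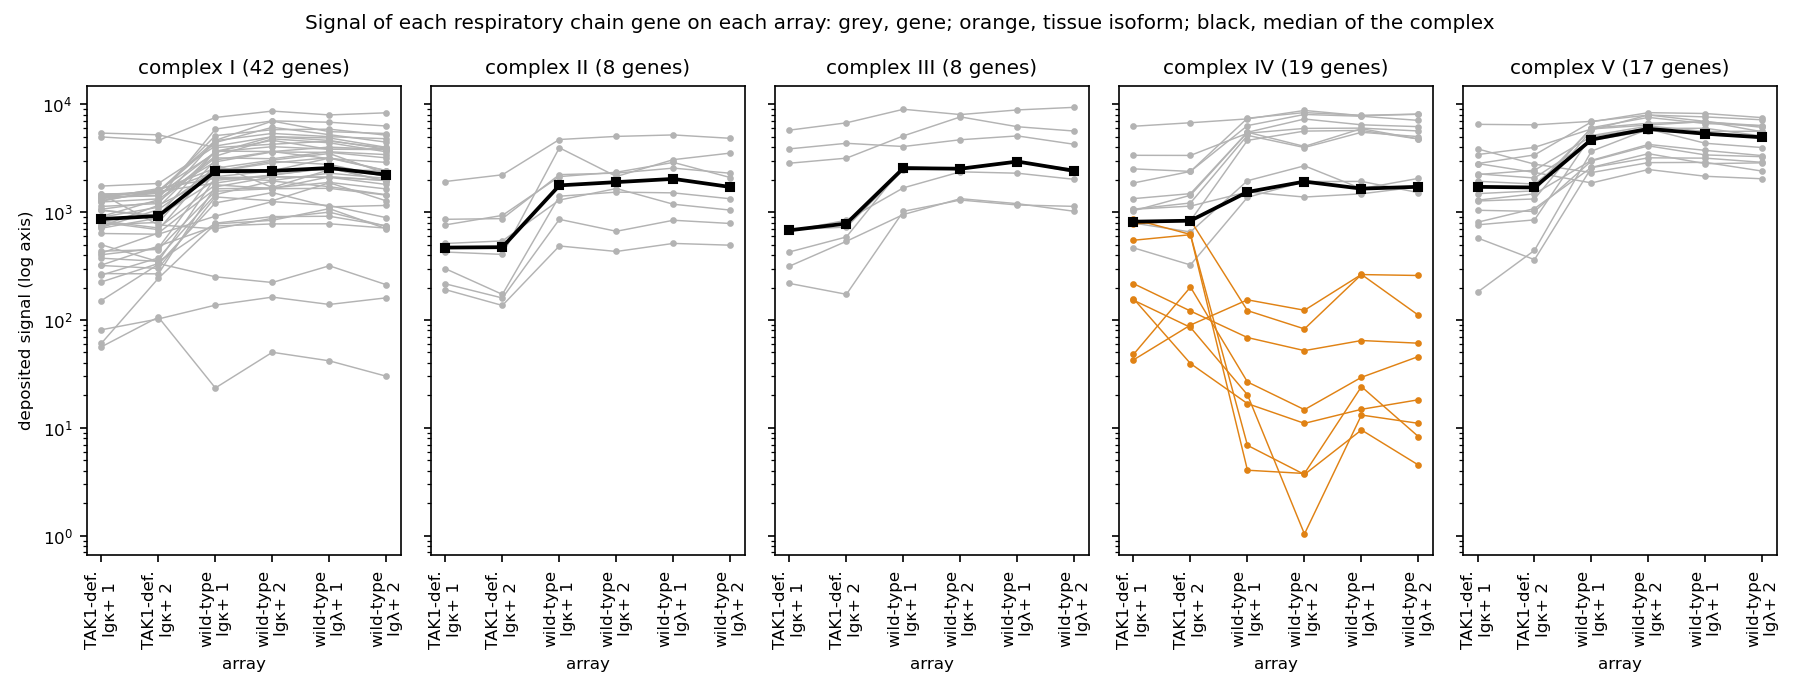
Deposited signal (log axis) of each of the 94 genes on each of the 6 arrays, 1 panel per complex, with the median of the complex in black and the tissue isoforms of complex IV in orange. Most grey lines step up from the TAK1-deficient to the wild-type arrays, while most orange lines step down; the median member went from 859 and 927 to between 2422 and 2945.

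Between TAK1-deficient and wild-type Igκ+ cells, most respiratory chain genes had a lower signal in the TAK1-deficient cells, in all 5 complexes. With limma on log2(signal + 16), on which dim genes show less change than on the signal itself, 74 of the 88 genes tested were lower and 3 were higher (Ndufc1, Cox6a2 and Cox7a1), and 11 were not called, at a Benjamini-Hochberg adjusted p of 0.05. The background was high in both directions: 49.8% of all 11696 genes tested were called lower and 26.1% were called higher. The median log2 difference was -1.49 over the members and -0.70 over all genes tested. Groups did not overlap, with the TAK1-deficient arrays lower, for 80 of 88 members against 57.8% of all genes, and with them higher for 3 of 88 against 31.8%. The TAK1-deficient mean was a median of 36.1% of the wild-type Igκ+ mean over all 94 genes.

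The size of the difference between these arrays moved with the level of a gene. A level adjustment therefore shifted each TAK1-deficient array by a smooth curve of its difference against the mean wild-type level. The curve was fitted over all probe sets but the controls. A value after the adjustment says how far a gene lies from probe sets of like wild-type brightness, further probe sets and those without a gene included. After it 33 members were lower and 15 higher, where 18.0% of all genes were called lower and 24.7% higher, and the median of the members was -0.24 against 0.03 over all genes tested. By complex, lower and higher calls after adjustment were 15 and 5 of 41 for complex I, 4 and 0 of 8 for complex II, 2 and 2 of 8 for complex III, 6 and 4 of 14 for complex IV, and 6 and 4 of 17 for complex V. Members of 1 complex were then called on both sides of 0, except in complex II, where 0 were called higher. Other scalings gave other splits, of all genes too. With median centring 87 members were lower and 0 higher, where 77.9% and 11.5% of all genes were. Scaling on the spiked controls gave the same member counts, where 81.4% and 8.44% of all genes were lower and higher. Quantile normalization gave 73 and 5, beside 57.9% and 18.8%. With no filter on dim genes 74 of 94 were lower and 8 higher, beside 32.4% and 48.4% of 18193 genes.

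**Figure D2:**
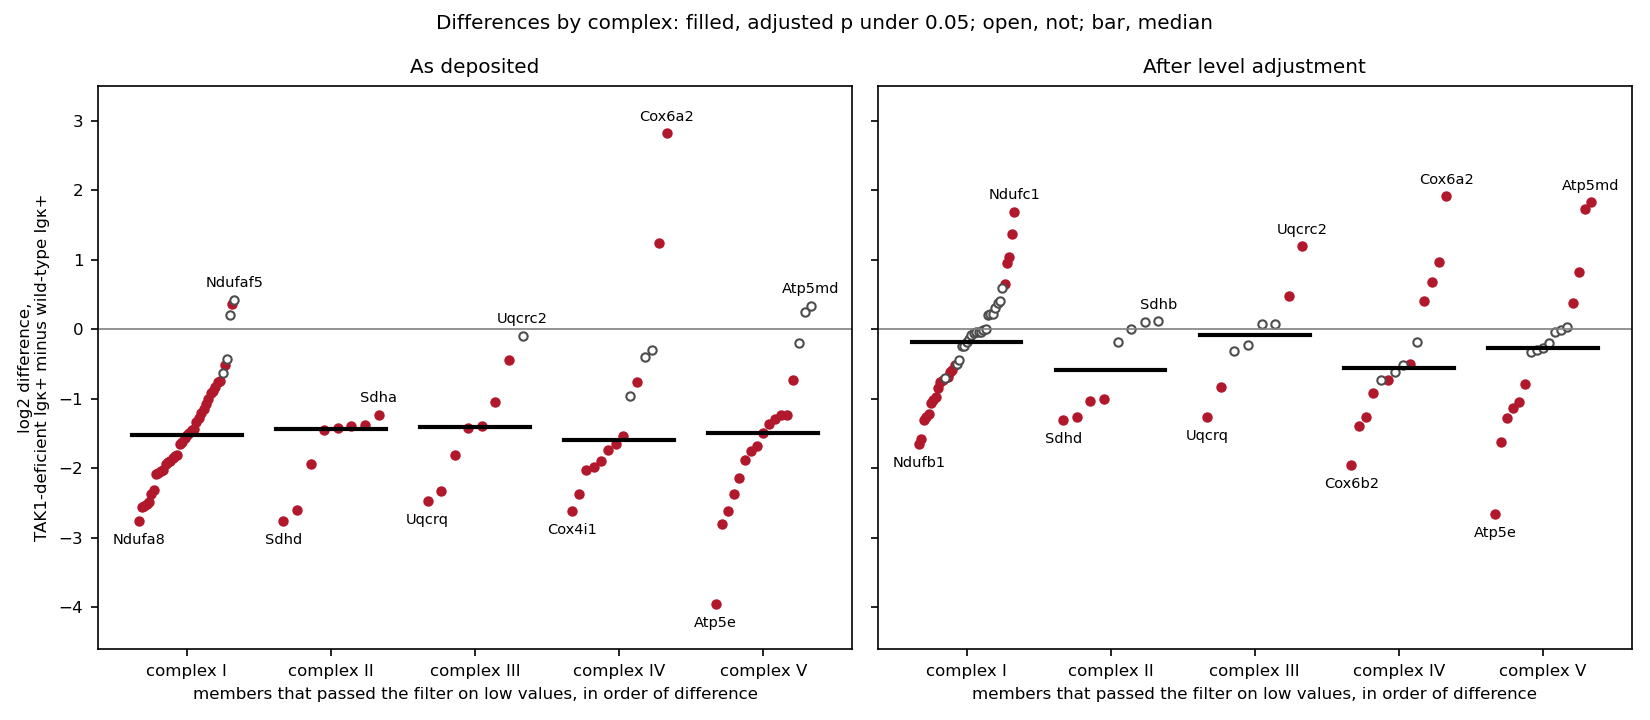
Log2 difference, TAK1-deficient minus wild-type Igκ+, of the 88 members tested, as deposited (left) and after the level adjustment (right), with filled points for an adjusted p under 0.05 and a bar for the median of each complex. Medians lie between -1.59 and -1.40 on the left and between -0.59 and -0.08 on the right, where every complex has points on both sides of 0 and called points of complex II lie only below it.

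Complex I, the entry point for NADH, had 36 of 41 members lower and 1 higher, with a median log2 difference of -1.52. All 6 of its catalytic core subunits measured here were lower. Ndufs1, which carries iron-sulfur clusters, had signals of 722 and 1054 on the TAK1-deficient Igκ+ arrays, 2529 and 2449.9 on the wild-type Igκ+ arrays and 2528 and 2178 on those of wild-type Igλ+ cells. The TAK1-deficient arrays lay below all others, and its log2 difference was -1.49 ± 0.22 (standard error, n = 2 per group; limma, Benjamini-Hochberg adjusted p = 0.00032). Ndufv1, the subunit that binds NADH and FMN, had 709 and 883 in TAK1-deficient Igκ+, 2531 and 2419 in wild-type Igκ+ and 3169 and 2419 in wild-type Igλ+ cells, again without overlap, and a log2 difference of -1.62 (limma adjusted p = 0.00014). Its partner Ndufv2 had 1477 and 1495 in TAK1-deficient Igκ+, 2392 and 2960.2 in wild-type Igκ+ and 2771 and 2129.9 in wild-type Igλ+ cells. It had the smallest difference of the 6, -0.83 (limma adjusted p = 0.0043), and was the only one of them called higher after the level adjustment, at 0.66 (limma adjusted p = 0.025). Ndufs3 differed by -1.94 (limma adjusted p = 1.5e-05), Ndufs7 by -1.56 (limma adjusted p = 0.00024) and Ndufs8, which binds iron-sulfur clusters on the way to ubiquinone, by -2.03 (limma adjusted p = 2.6e-05). Ndufs3 and Ndufs8 were also lower after the level adjustment, at -0.75 and -0.68, while Ndufs1 was at -0.0026 and was not called.

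Among the 27 accessory subunits of complex I tested, 24 were lower and 1 was higher. The largest decrease was that of Ndufa8, with signals of 269 and 268 in TAK1-deficient Igκ+, 1715 and 2124 in wild-type Igκ+ and 2103 and 1807 in wild-type Igλ+ cells and a log2 difference of -2.76 ± 0.22 (standard error, n = 2 per group; limma, Benjamini-Hochberg adjusted p = 1.4e-05). Its TAK1-deficient mean was 14.0% of the wild-type Igκ+ mean, and no array of one group reached the other. Ndufb8 followed with 403 and 464 in TAK1-deficient Igκ+, 2394 and 2858 in wild-type Igκ+ and 3204 and 2429 in wild-type Igλ+ cells and a log2 difference of -2.55 (limma adjusted p = 1.8e-05). Both stayed lower after the level adjustment, at -1.30 and -1.07. Ndufa9, whose promoter is printed above, had 1064 and 1252 in TAK1-deficient Igκ+, 3187 and 3129 in wild-type Igκ+ and 3629.9 and 3414 in wild-type Igλ+ cells, a log2 difference of -1.44 (limma adjusted p = 7.7e-05) and -0.0093 after the level adjustment. Ndufc1 was the accessory subunit called higher. Its signals were 5408 and 5212 in TAK1-deficient Igκ+, 3967 and 4263 in wild-type Igκ+ and 4551 and 3941 in wild-type Igλ+ cells, the 2 TAK1-deficient arrays lying above all others, with a log2 difference of 0.37 ± 0.14 (standard error, n = 2 per group; limma, Benjamini-Hochberg adjusted p = 0.039). That call was lost when any 1 of the 4 Igκ+ arrays was left out, with limma adjusted p from 0.059 to 0.14, and the other probe set of Ndufc1 differed by -0.99, with 340.2 and 354 in TAK1-deficient against 658 and 753 in wild-type Igκ+ cells. The brightest probe set itself was at 1.69 (limma adjusted p = 0.00015) after the level adjustment, -2.01 with median centring and -3.06 with scaling on the spiked controls.

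The 8 assembly factors of complex I, which help to build the complex and leave it when finished, had 6 lower and 0 higher calls, with a median of -1.41. Ndufaf2 had 60.8 and 243 in TAK1-deficient Igκ+, 777 and 839.9 in wild-type Igκ+ and 1078 and 701 in wild-type Igλ+ cells, and its log2 difference was -2.55 ± 0.54 (standard error, n = 2 per group; limma, Benjamini-Hochberg adjusted p = 0.0025). Its TAK1-deficient arrays differed widely from each other but lay below all wild-type arrays. Ndufaf5 had 1469.6 and 761 in TAK1-deficient Igκ+, 700.2 and 877 in wild-type Igκ+ and 1000.5 and 739 in wild-type Igλ+ cells. The second TAK1-deficient array lay inside the wild-type range, and the log2 difference of 0.43 (limma adjusted p = 0.273) was not called, nor was that of Ndufaf6, 0.20 (limma adjusted p = 0.629).

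Complex II, which oxidises succinate and is the one complex shared with the citric acid cycle, had all 8 genes lower, with a median log2 difference of -1.43. Its 2 catalytic subunits and its 2 membrane anchors differed in size. Sdha, the flavoprotein that oxidises succinate, had 1923 and 2219.9 in TAK1-deficient Igκ+, 4715 and 5037 in wild-type Igκ+ and 5199 and 4837 in wild-type Igλ+ cells and a log2 difference of -1.23 ± 0.15 (standard error, n = 2 per group; limma, Benjamini-Hochberg adjusted p = 0.00011), and Sdhb, the iron-sulfur subunit, had 858 and 871 in TAK1-deficient Igκ+, 2228 and 2302 in wild-type Igκ+ and 2559 and 2294 in wild-type Igλ+ cells and -1.37 (limma adjusted p = 0.00013). Sdhc, a membrane anchor that helps to form the ubiquinone site, had 299 and 173 in TAK1-deficient Igκ+, 1405 and 1533 in wild-type Igκ+ and 1509 and 1330.5 in wild-type Igλ+ cells and a log2 difference of -2.61 (limma adjusted p = 7.7e-05). Sdhd, the other anchor, had 427 and 406 in TAK1-deficient Igκ+, 3952 and 2141 in wild-type Igκ+ and 3067 and 3528 in wild-type Igλ+ cells and -2.76 (limma adjusted p = 4.7e-05). For all 4 subunits the TAK1-deficient arrays lay below all wild-type arrays. After the level adjustment the catalytic pair lay near 0, Sdha at 0.0060 and Sdhb at 0.12, and neither was called. The anchors remained lower, Sdhc at -1.27 (limma adjusted p = 0.01) and Sdhd at -1.30 (limma adjusted p = 0.007). The difference between the pairs was not tested. The assembly factor Sdhaf1, needed to insert iron-sulfur clusters into Sdhb, had 216 and 160.0 in TAK1-deficient Igκ+, 857 and 664 in wild-type Igκ+ and 841 and 785 in wild-type Igλ+ cells and a log2 difference of -1.93 (limma adjusted p = 0.00044), and the other 3 assembly factors lay between -1.45 (Sdhaf4) and -1.39 (Sdhaf2).

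Complex III had 7 of 8 genes lower, with a median of -1.40. Uqcrfs1, the Rieske iron-sulfur protein that takes electrons from ubiquinol, had 428 and 589 in TAK1-deficient Igκ+, 2656 and 2498 in wild-type Igκ+ and 2922 and 2494 in wild-type Igλ+ cells and a log2 difference of -2.32 ± 0.21 (standard error, n = 2 per group; limma, Benjamini-Hochberg adjusted p = 2.7e-05). The core protein Uqcrc1 had 689.7 and 726 in TAK1-deficient Igκ+, 2465 and 2555 in wild-type Igκ+ and 2968 and 2335 in wild-type Igλ+ cells and -1.80 (limma adjusted p = 5.1e-05), with TAK1-deficient arrays well below the rest. The other core protein, Uqcrc2, had 3861 and 4348 in TAK1-deficient Igκ+, 4059.5 and 4691 in wild-type Igκ+ and 5090.2 and 4254 in wild-type Igλ+ cells; its groups overlapped, and its log2 difference of -0.09 (limma adjusted p = 0.612) was not called. A further probe set of Uqcrc2 had 1025 and 1167 in TAK1-deficient and 3464 and 3953 in wild-type Igκ+ cells, a log2 difference of -1.74, so that its 2 probe sets disagreed in size. Of the small subunits, Uqcrq had the largest decrease, with 218 and 173 in TAK1-deficient Igκ+, 1018 and 1295 in wild-type Igκ+ and 1166 and 1131 in wild-type Igλ+ cells and -2.47 (limma adjusted p = 6.2e-05), although its 3 further probe sets, dim on the wild-type arrays, had differences from 0.89 to 3.09, and the mean over its probe sets was higher by 0.67. Uqcr10 differed by -1.39 (limma adjusted p = 0.00065), Uqcr11 by -1.42 (limma adjusted p = 0.0033) and Uqcrh, the hinge protein, by -1.05 (limma adjusted p = 0.0014). Uqcrb, a subunit that binds near the ubiquinone site, had 5759 and 6732 in TAK1-deficient Igκ+, 8991 and 8029 in wild-type Igκ+ and 8866 and 9370.2 in wild-type Igλ+ cells. It showed the smallest called decrease, -0.45 (limma adjusted p = 0.015), and was higher after the level adjustment, at 0.47 (limma adjusted p = 0.012).

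Complex IV, cytochrome c oxidase, had 8 of its 10 common structural subunits lower and 0 higher. Cox4i1, a regulatory subunit that binds ATP, had 816 and 833 in TAK1-deficient Igκ+, 4628 and 5641 in wild-type Igκ+ and 5724 and 4761 in wild-type Igλ+ cells, and its log2 difference was -2.61 ± 0.17 (standard error, n = 2 per group; limma, Benjamini-Hochberg adjusted p = 6.5e-06). The 2 TAK1-deficient arrays differed little from each other and lay below all wild-type arrays, at 16.1% of the wild-type Igκ+ mean. Cox6b1, on the side that meets cytochrome c, had 1029 and 1434 in TAK1-deficient Igκ+, 5498 and 7301 in wild-type Igκ+ and 6453 and 6203 in wild-type Igλ+ cells and -2.37 (limma adjusted p = 2.1e-05). Cox8a had 467 and 324 in TAK1-deficient Igκ+, 1372 and 1920.2 in wild-type Igκ+ and 1928 and 1518 in wild-type Igλ+ cells and -2.02 (limma adjusted p = 0.00022). Cox6a1, whose promoter holds the NRF1 core once, had 1863 and 2385 in TAK1-deficient Igκ+, 7427 and 8374 in wild-type Igκ+ and 7895 and 8124 in wild-type Igλ+ cells and -1.90 (limma adjusted p = 1.8e-05). Cox5a differed by -1.98 (limma adjusted p = 2.5e-05), Cox6c by -1.74 (limma adjusted p = 7.8e-05), Ndufa4, first named as a complex I subunit and now placed in complex IV, by -1.65 (limma adjusted p = 0.00025), and Cox7a2l, which joins complexes III and IV in supercomplexes, by -1.54 (limma adjusted p = 4.5e-05). Cox5b differed less, by -0.75 (limma adjusted p = 0.00092). Its further probe sets disagreed in size, at -2.09, -1.25, -0.40 and -0.34, and a dim one was at 3.20. Cox7a2 had 6256 and 6742 in TAK1-deficient Igκ+, 7321 and 8767 in wild-type Igκ+ and 7843 and 8074 in wild-type Igλ+ cells and -0.30 (limma adjusted p = 0.069), and Cox7c had 1063 and 1138 in TAK1-deficient Igκ+, 1538 and 1380.4 in wild-type Igκ+ and 1479 and 1718 in wild-type Igλ+ cells and -0.40 (limma adjusted p = 0.082). Neither was called, although no TAK1-deficient array of Cox7a2 or Cox7c reached the wild-type Igκ+ arrays. A further probe set of Cox7a2 had 1176 and 1363 in TAK1-deficient and 4368 and 4958 in wild-type Igκ+ cells, a log2 difference of -1.87, so that its probe sets disagreed in size. Cox5b, Cox7a2 and Cox7c were called higher after the level adjustment, at 0.41, 0.68 and 0.97, while Cox4i1 and Cox6b1 stayed lower, at -1.39 and -1.26.

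Complex V, the ATP synthase, had 14 of 17 genes lower and 0 higher, with a median of -1.48. In its F1 head, Atp5b, the catalytic beta subunit, had 2232 and 2446 in TAK1-deficient Igκ+, 5037 and 5984 in wild-type Igκ+ and 5989.8 and 5065 in wild-type Igλ+ cells and a log2 difference of -1.23 ± 0.16 (standard error, n = 2 per group; limma, Benjamini-Hochberg adjusted p = 0.00017). Atp5a1, the alpha subunit of the same ring, had 6517 and 6447 in TAK1-deficient Igκ+, 6949 and 7945 in wild-type Igκ+ and 7635 and 7181 in wild-type Igλ+ cells and -0.20 (limma adjusted p = 0.188), which was not called although both TAK1-deficient arrays lay below the others. Of its 2 further probe sets, one differed by -1.52 and the other by -0.22. Atp5c1, the gamma shaft that turns inside the ring, differed by -0.74 (limma adjusted p = 0.0017), and Atp5d, at the foot of the shaft, by -2.37 (limma adjusted p = 1.6e-05). Atp5e, the small epsilon subunit of the stalk, had the largest decrease among the 88 members tested. Its signals were 181 and 442 on the TAK1-deficient Igκ+ arrays, 3675 and 5882 on the wild-type Igκ+ arrays and 4349 and 3969 on those of wild-type Igλ+ cells, and its log2 difference was -3.96 ± 0.38 (standard error, n = 2 per group; limma, Benjamini-Hochberg adjusted p = 3.7e-05). Both TAK1-deficient arrays were far below the wild-type range, at a mean of 6.52% of wild-type Igκ+, though the 2 differed from each other. Atp5e also had the largest decrease among the members after the level adjustment, -2.66 (limma adjusted p = 0.0008). Its probe set is of a kind (suffix _s_) that can match more than 1 gene, and it was the only one for Atp5e.

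The c ring, the rotor through which protons pass, is built from 1 protein that 3 genes encode with different import sequences. All 3 were lower: Atp5g1, with 576 and 363 in TAK1-deficient Igκ+, 2586 and 3189 in wild-type Igκ+ and 3166 and 2895 in wild-type Igλ+ cells, by -2.61 (limma adjusted p = 3.2e-05); Atp5g2 by -1.67 (limma adjusted p = 0.00016); and Atp5g3 by -2.14 (limma adjusted p = 9.3e-06). Atp5g1 and Atp5g3 were also lower after the level adjustment, at -1.14 and -1.05, and Atp5g2 lay at -0.20. In the peripheral stalk, which holds the head still, all 4 genes were lower. Atp5j had 763 and 848 in TAK1-deficient Igκ+, 5125 and 6284 in wild-type Igκ+ and 5605 and 5622 in wild-type Igλ+ cells and -2.79 (limma adjusted p = 4.6e-06), without overlap, and it remained lower after the level adjustment at -1.63. Atp5pb, printed above for its promoter, had 1933 and 1822 in TAK1-deficient Igκ+, 4715 and 5916 in wild-type Igκ+ and 5237 and 4939 in wild-type Igλ+ cells and -1.48 (limma adjusted p = 6e-05), and -0.27 after the adjustment. Of the 5 small membrane subunits that shape the dimer, 3 were lower. The other two, Atp5md with 3861 and 2785 in TAK1-deficient Igκ+, 2328 and 2878 in wild-type Igκ+ and 2893 and 2399.5 in wild-type Igλ+ cells and Atp5l with 2824 and 2334 in TAK1-deficient Igκ+, 1865 and 2485 in wild-type Igκ+ and 2150.4 and 2038 in wild-type Igλ+ cells, overlapped between the Igκ+ groups. They differed by 0.34 (limma adjusted p = 0.167) and 0.25 (limma adjusted p = 0.261), and were higher after the level adjustment, at 1.83 and 1.73.

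The 8 tissue isoforms of complex IV, versions of its subunits most of which are known from heart, muscle, lung or testis, did not follow the common subunits. On the wild-type arrays their signals were low, between 1.04 (Ndufa4l2) and 265 (Cox6b2). A higher signal was common on the TAK1-deficient arrays: with no filter on dim genes, 48.4% of 18193 genes were called higher. In members called lower, 17 of 20 further probe sets with a wild-type mean under 200 were higher there. One of them was a dim probe set of the common subunit Cox5b, at 3.20. Cox6a2, the heart and muscle form of subunit VIa, had 777 and 841 on the TAK1-deficient Igκ+ arrays, 122 and 82.7 on the wild-type Igκ+ arrays and 264 and 259 on those of wild-type Igλ+ cells. The TAK1-deficient arrays were the highest and the wild-type Igκ+ arrays the lowest, and the log2 difference between them was 2.82 ± 0.33 (standard error, n = 2 per group; limma, Benjamini-Hochberg adjusted p = 0.0001), 1.91 (limma adjusted p = 0.0032) after the level adjustment and -0.39 with scaling on the spiked controls. Cox7a1, the heart and muscle form of subunit VIIa, had 217 and 121 in TAK1-deficient Igκ+, 68.8 and 52.0 in wild-type Igκ+ and 64.5 and 60.9 in wild-type Igλ+ cells and 1.24 (limma adjusted p = 0.013). This call was lost without the first TAK1-deficient array (adjusted p = 0.12) or the second wild-type Igκ+ array (0.075), and the difference was -0.73 with the level adjustment, -1.31 with quantile normalization, -1.14 with median centring and -1.33 with scaling on the spiked controls. Cox6b2, the testis form of subunit VIb, had 42.7 and 89.7 in TAK1-deficient Igκ+, 154 and 123 in wild-type Igκ+ and 265 and 111 in wild-type Igλ+ cells and -0.96 (limma adjusted p = 0.094). Cox7b2, a testis form, had 859 and 621 in TAK1-deficient Igκ+, 6.88 and 3.69 in wild-type Igκ+ and 9.56 and 4.52 in wild-type Igλ+ cells, and Cox8c, also of testis, had 549 and 618 in TAK1-deficient Igκ+, 4.05 and 3.78 in wild-type Igκ+ and 24.1 and 8.29 in wild-type Igλ+ cells. Both stood clearly above the wild-type arrays on both TAK1-deficient arrays. Neither exceeded, in wild-type Igκ+ cells, the 95th percentile of the unspiked controls, 13.4 and 10.3. Set against that level, the deposited TAK1-deficient signal, averaged on the log2 scale, was at least 62.2-fold higher for Cox7b2 and at least 49.5-fold higher for Cox8c. These bounds hold for deposited signals only, as no scaling between arrays entered them. The spiked controls too were higher on the TAK1-deficient arrays, 41197 to 47043 against 3985 to 4608. How much of the ratios is shared with that rise was not tested. Cox7b2, Cox8c and 4 other genes failed the filter and were tested only in the fit without a filter (limma adjusted p = 1.5e-05 for Cox7b2 and 1.8e-05 for Cox8c). Cox4i2, the lung form of subunit IV, had 47.9 and 202 in TAK1-deficient Igκ+, 26.7 and 14.7 in wild-type Igκ+ and 29.4 and 45.8 in wild-type Igλ+ cells, Cox8b 158 and 39.5 in TAK1-deficient Igκ+, 16.8 and 11.01 in wild-type Igκ+ and 14.9 and 18.2 in wild-type Igλ+ cells, and Ndufa4l2 153 and 85.4 in TAK1-deficient Igκ+, 20.3 and 1.04 in wild-type Igκ+ and 13.1 and 11.01 in wild-type Igλ+ cells. For Cox4i2 and Cox8b 1 TAK1-deficient array was far above the other. The lower one, and the first TAK1-deficient array of Cox6b2, lay under the 95th percentile of the unspiked controls. That level was 77.7 and 75.7 on the TAK1-deficient arrays.

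Of 11 lists of cell type and tissue markers, 5 had a higher summed signal on both TAK1-deficient arrays than on any wild-type array, 2 a lower one, and 4 overlapped. The summed signal of 4 testis markers was 6975 and 8118 on the TAK1-deficient arrays and 99.1 to 262 on the wild-type arrays, with Prm1, Tnp1 and Ldhc above the unspiked controls on the former and Prm2 below them. That of 5 muscle and heart markers was 908 and 749 against 62.5 to 121, with Ckm, Actc1, Tnnt2 and Myh7 above the unspiked controls of the TAK1-deficient arrays and Myh6 below them. The sum of 7 T cell markers was 3962 and 4235 against 203 to 274, with 2431 and 2313 on the TAK1-deficient arrays from Bcl11b alone. Cd3e, Cd3g, Cd8a and Cd5 also exceeded the unspiked controls on both of these arrays, and Cd3d on neither. Cd4 exceeded them only on the second and overlapped the wild-type arrays. The lists of B cells and of stromal and endothelial cells also had higher sums. Among the B cell markers, Cd79b, Ms4a1 and Ebf1 were higher on both TAK1-deficient arrays than on any wild-type array. Cd79a, Cd22 and Blk were lower, and Pax5, Igll1 and Vpreb1 overlapped. Among the stromal and endothelial markers Pecam1 was lower and the rest were higher. The summed signal of plasma cell markers was 4678 and 6334 on the TAK1-deficient arrays and 9885 to 30040 on the wild-type arrays. All 6 of 6 exceeded the unspiked controls on every array. Single plasma cell markers were split: Igha, Xbp1 and Irf4 were lower on both TAK1-deficient arrays than on any wild-type array. Sdc1 and Jchain overlapped, and Prdm1 was higher, with 391 and 759 against 71.7 to 219. Erythroid markers had a sum of 847 and 742 against 1049 to 3120, with 6 of 8 listed on a probe set of their own. Of these only Car2 was lower on both TAK1-deficient arrays than on any wild-type array, with 286 and 312 against 957 to 1836. Hba-a1 was higher, and Klf1, Car1, Alas2 and Epor overlapped. Cyct, the testis form of cytochrome c, had 783 and 813 in TAK1-deficient Igκ+, 30.7 and 7.49 in wild-type Igκ+ and 23.0 and 27.3 in wild-type Igλ+ cells, a log2 difference of 4.62 (limma adjusted p = 1.9e-05), although only 1 of the 2 wild-type Igκ+ arrays exceeded the unspiked controls. The part of cells of other kinds, or of the raised background of these arrays, in the signals of the members was not tested.

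**Figure D3:**
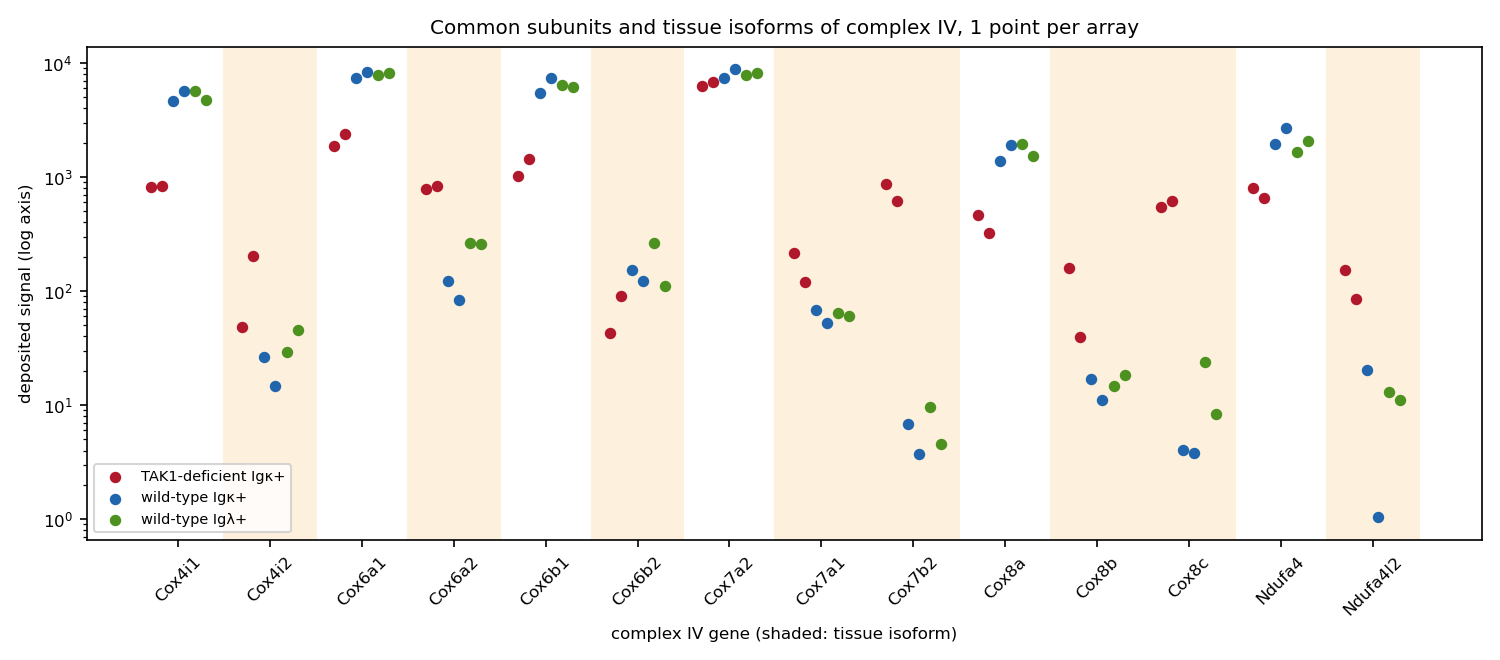
Deposited signal (log axis) of 6 common subunits and the 8 tissue isoforms (shaded) of complex IV, with 1 point per array. Common subunits other than Cox7a2 have both TAK1-deficient points clearly below the wild-type points, and the isoforms other than Cox6b2 have them above, as for Cox7b2 with 859 and 621 against 3.69 to 9.56.

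Genes with more than 1 probe set showed that the direction of the difference followed the level of the probe set. Of the 88 members tested, 52 had further probe sets, 90 in all, and 68 of these (75.6%) had a difference of the same sign as the brightest one, against 59.5% over all genes tested. Where the further probe set had a wild-type mean of at least 1000, 51 of 51 had the same sign, against 87.5% over all genes. Where that mean was under 200, 4 of 21 did (19.0%), and 17 had the opposite sign, against 52.0% of the same sign over all genes. Ndufab1, the mitochondrial acyl carrier protein that is also a subunit of complex I, shows the split. Its brightest probe set had 1047 and 918 in TAK1-deficient Igκ+, 1972 and 2208 in wild-type Igκ+ and 2558 and 1934 in wild-type Igλ+ cells, a log2 difference of -1.08, and a dimmer one had 1262 and 1203 in TAK1-deficient Igκ+, 71.2 and 69.2 in wild-type Igκ+ and 71.1 and 95.04 in wild-type Igλ+ cells, a log2 difference of 3.86. In Atp5g1 the dim probe set had 471 and 501 against 26.9 and 55.1, a log2 difference of 3.18, in Atp5j2 it had 592 and 629.7 against 74.9 and 68.7, and in Sdhaf3 327 and 437 against 19.9 and 15.2. All 3 were higher on the TAK1-deficient arrays, where the brightest probe set of the same gene was lower. Averaging all probe sets of a gene turned Atp5g1 to 0.29, Uqcrq to 0.67 and Ndufc1 to -0.31. Of the brightest probe sets, 21 of 94 carry a suffix (_s_ or _x_) of sets that can match more than 1 gene.

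**Figure D4:**
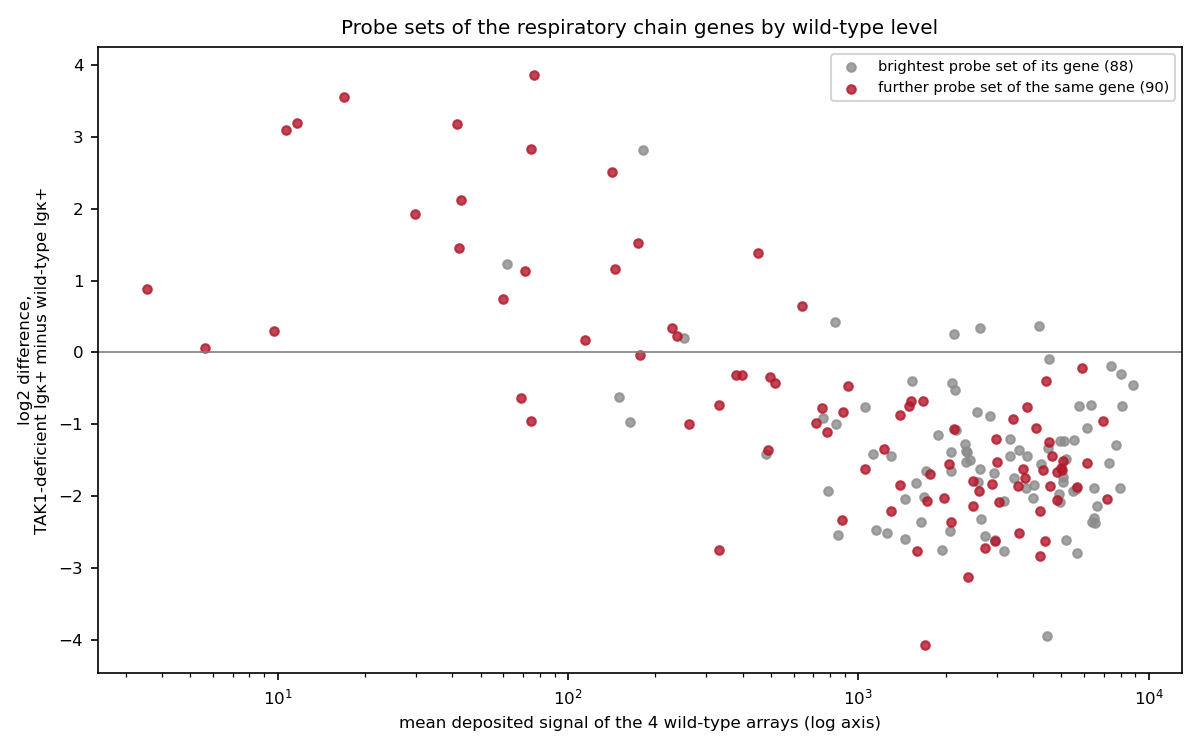
Log2 difference, TAK1-deficient minus wild-type Igκ+, of each probe set against its mean signal on the 4 wild-type arrays (log axis), in grey for the brightest probe set of the 88 genes tested and in red for the 90 further probe sets. Red points with a wild-type mean of at least 1000 have the sign of the brightest set in 51 of 51 cases, and those under 200 in 4 of 21.

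Between the wild-type groups, Igλ+ and Igκ+ cells, none of the 88 members was called. The background was 0% in each direction by limma with Benjamini-Hochberg adjustment, with 239 of 11696 genes and 1 member, Cox6a2, at an unadjusted p under 0.05. The median log2 difference of the members was 0.03, beside 0.04 over all genes tested, with 52 above 0 and 36 below. The 95% interval of a member's difference reached a median of 0.46 to either side. With 2 arrays a group, larger differences could also go uncalled: in simulated data of this comparison 14% of genes changed by 1 on the log2 scale were called. The changed genes were drawn from all 11696 genes tested, whose 95% interval reached a median of 0.70 to either side. That share is thus not one for the members. Cox6a2 had 122 and 82.7 in Igκ+ and 264 and 259 in Igλ+ cells, both Igλ+ arrays above both Igκ+ arrays, a log2 difference of 1.25 (95% interval 0.49 to 2.005; limma unadjusted p = 0.0052, adjusted p = 0.99998). The lowest value was that of Sdhaf4, an assembly factor of complex II, with 1295 and 1656 against 1184 and 1044 and a log2 difference of -0.39 (95% interval -0.91 to 0.12). Groups did not overlap for 5 members with Igλ+ higher (Ndufa12, Ndufa9, Ndufb9, Sdhaf3 and Cox6a2) and 2 with Igλ+ lower (Ndufaf3 and Sdhaf4), where 13.5% and 9.24% of all genes did so; both shares of the members lie below these. Core subunits lay near 0: Sdha at 0.04 (95% interval -0.29 to 0.38), Uqcrc1 at 0.07 (-0.36 to 0.50), Cox4i1 at 0.03 (-0.36 to 0.42) and Atp5b at 0.0048 (-0.36 to 0.37).

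Over the 4 wild-type arrays the members varied little. The ratio of the highest to the lowest wild-type signal had a median of 1.26 and was under 1.5 for 78 of 88 members (88.6%), against 1.502 and 49.8% over all genes tested. All genes were not matched to the members for level, and the median member stood at percentile 92.2 to 93.9 on these arrays. Whether bright genes in general vary as little was not tested. What variation there was ran together. On the second wild-type Igκ+ array 68 of 88 members were above the first, by a median of 0.22 on the log2 scale, where the median of all genes was -0.10, and on the second Igλ+ array 76 of 88 were below the first, by a median of -0.13 beside -0.10 for all genes. In Igκ+ cells the second array was above the first for 80, 68 and 67 of 88 members with median centring, scaling on the spiked controls and quantile normalization. Over all genes the shares were 59.9%, 39.6% and 43.6%, so that with median centring most genes ran the same way, with a median of 0.095 beside 0.42 for the members. Complex V showed it most evenly: the first wild-type Igκ+ array was the lowest of the 4 for 16 of 17 genes and the second the highest for 13 of 17, while over all genes tested these arrays were so in 13.8% and 21.1%. Atp5o, for example, had 6001 and 6671 in Igκ+ and 6862 and 6324 in Igλ+ cells.

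**Figure D5:**
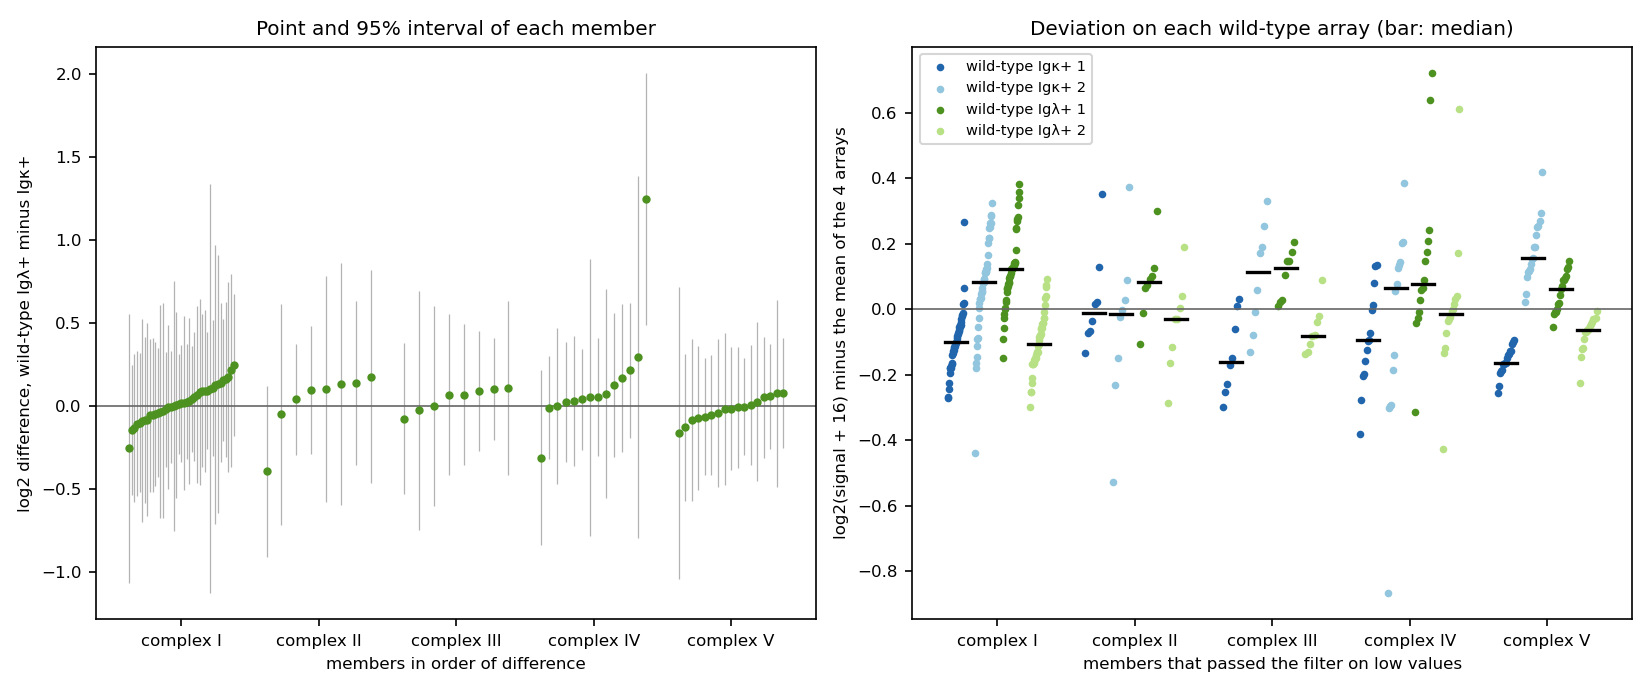
Left, log2 difference of each member tested between wild-type Igλ+ and Igκ+ cells with its 95% interval; right, deviation of each member on each wild-type array from its mean over the 4, with a bar for the median. On the left only the interval of Cox6a2 (1.25) lies clear of 0, and on the right the complex V points of the first and second Igκ+ arrays lie on opposite sides of 0.

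TAK1-deficient Igκ+ cells were also set against wild-type Igλ+ cells, where genotype and light chain differ together. The values share the TAK1-deficient arrays with those above and are given only beside them. Of 88 members, 77 were lower and 2 higher, where 50.5% and 25.8% of all genes were, with a median of -1.54 beside -1.49 against wild-type Igκ+ cells. The 2 higher were Cox6a2, at 1.57 (limma adjusted p = 0.0025), and Cox7a1, at 1.18 (0.016). Atp5e had -3.79 here and -3.96 there, Sdhd -2.94 and -2.76, and Cox4i1 -2.64 and -2.61. Ndufa7, Cox7c and Cox6b2 were called lower here only, and Ndufc1 was called higher only there; whether these differ between the comparisons was not tested.

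Genes that serve the chain without bearing these names were read from the same fit of TAK1-deficient against wild-type Igκ+ cells. Their lists were drawn up with earlier results of these data known. In that fit the median of all genes was -0.70 and, as above, 49.8% were lower and 26.1% higher. After the level adjustment 18.0% of all genes were lower and 24.7% higher, with a median of 0.03. Cytochrome c, which shuttles electrons from complex III to IV, is encoded by Cycs, with 2151 and 2466 in TAK1-deficient Igκ+, 3522 and 2039.8 in wild-type Igκ+ and 3696 and 3482 in wild-type Igλ+ cells and -0.22 (limma adjusted p = 0.438). Cyc1, the cytochrome c1 of complex III, had 527 and 722 in TAK1-deficient Igκ+, 2234 and 2071 in wild-type Igκ+ and 3075 and 2169 in wild-type Igλ+ cells and -1.78 (limma adjusted p = 0.00021). Of 31 assembly factors of the complexes, 22 were lower and 1 higher, with a median of -1.35, and 14 and 4 after the level adjustment. The higher one was Lyrm7, at 2.54 (limma adjusted p = 0.00016). Cox17, which carries copper to complex IV, differed by -1.89 (limma adjusted p = 2.7e-05), Surf1, another assembly factor of complex IV, by -2.35 (limma adjusted p = 1.4e-05) and Coa3 by -2.92 (limma adjusted p = 5.4e-06). In the citric acid cycle all 17 genes were lower, with a median of -1.31, such as Mdh2 (malate dehydrogenase) at -1.86 (limma adjusted p = 1.5e-05), Cs (citrate synthase) at -0.74 (limma adjusted p = 0.0033) and Idh3g at -0.71 (limma adjusted p = 0.0013). After the level adjustment 2 of the 17 were lower and 2 higher, with a median of 0.0082. Of 8 carriers and channels, 7 were lower, including Slc25a5, an ADP/ATP carrier, at -0.90 (limma adjusted p = 0.00058) and Slc25a3, the phosphate carrier, at -1.19 (limma adjusted p = 0.0015), while Vdac1 of the outer membrane was at 0.19 (limma adjusted p = 0.196). The adjustment left 3 lower and 1 higher. The mitochondrial ribosome serves to translate the mitochondrially encoded subunits. Its list was taken by the names Mrpl and Mrps, and whether each gene encodes a ribosomal protein was not checked. Of these, 68 of 76 were lower and 1 higher, with a median of -1.49. Examples were Mrpl52 at -1.78 (limma adjusted p = 0.00016), Mrpl24 at -1.95 (limma adjusted p = 3e-05) and Mrpl51 at -1.47 (limma adjusted p = 8.6e-05). The higher one was Mrps36, at 0.96 (limma adjusted p = 0.0023), and after the adjustment 19 were lower and 10 higher. Of 19 regulators of mitochondrial transcription and biogenesis, 11 were lower and 4 higher, with a median of -0.63. Yy1 was at -1.18 (limma adjusted p = 8.5e-05), Ssbp1, which binds mitochondrial DNA, at -0.53 (limma adjusted p = 0.015) and Mterf3 at -1.72 (limma adjusted p = 9.9e-05). The 4 higher were the coactivators Ppargc1a, at 2.91 (limma adjusted p = 0.00011), and Ppargc1b, at 2.77 (limma adjusted p = 0.00012), and the transcription factors Nrf1, at 1.42 (limma adjusted p = 0.0023), and Esrra, at 1.24 (limma adjusted p = 0.008). After the level adjustment this list turned to 1 lower and 10 higher, with a median of 0.65. Glycolysis had 10 of 15 lower and 2 higher, with a median of -0.78, Aldoa at -0.91 (limma adjusted p = 0.0018), Ldha at -0.70 (limma adjusted p = 0.0064) and Pgk1 at -0.78 (limma adjusted p = 0.0027). Ldhb, at 2.70 (limma adjusted p = 0.00019), and Pfkm, at 1.14 (limma adjusted p = 0.037), were the 2 higher, and after the adjustment 2 were lower and 5 higher, with a median of 0.32. In the list of cytochrome c and its partners, which holds Cycs, Cyc1 and Cyct, 1 was lower and 1 higher, and 0 and 2 after the adjustment. Genes named here as higher were chosen after their values were seen. Between the wild-type groups 0 genes of any of these 7 lists were called by limma, as over all genes. ND5, a complex I subunit encoded in the mitochondrial genome and chosen after its values were seen, went the other way, with 22957 and 24119 on the TAK1-deficient arrays, 8273 and 8625 in wild-type Igκ+ cells, and 8679 and 7354 in wild-type Igλ+ cells.

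A further 10 probe sets carry a member together with another gene and entered no test. The pair Ndufa11 and Ndufa11b, for example, had 183 and 271 in TAK1-deficient Igκ+, 1603 and 2015 in wild-type Igκ+ and 1954 and 1680.2 in wild-type Igλ+ cells on one of them, Ndufs6 with Ndufs6b 1212 and 1248 in TAK1-deficient Igκ+, 2186 and 2938 in wild-type Igκ+ and 2332 and 2475 in wild-type Igλ+ cells, and Ndufb4 with Ndufb4b and Ndufb4c 846 and 895 in TAK1-deficient Igκ+, 3184 and 3422 in wild-type Igκ+ and 3876 and 3095 in wild-type Igλ+ cells. These 3 and 3 more of the 10 were lower on both TAK1-deficient arrays than on any wild-type array. The other 4 were higher there than on any wild-type array, and dim on the latter: a second set of Ndufa11 and Ndufa11b had 335 and 395 in TAK1-deficient Igκ+, 96.5 and 47.4 in wild-type Igκ+ and 94.6 and 87.7 in wild-type Igλ+ cells, a set of Ndufb2 with Adck2 184 and 194 in TAK1-deficient Igκ+, 25.1 and 29.0 in wild-type Igκ+ and 45.6 and 32.2 in wild-type Igλ+ cells, and the 2 sets of Ndufa13 with Yjefn3 went the same way, one of them with 98.1 and 93.0 in TAK1-deficient Igκ+, 38.7 and 27.8 in wild-type Igκ+ and 44.0 and 69.8 in wild-type Igλ+ cells.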

How the data were processed

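Each of 6 Affymetrix arrays measured 45101 probe sets in RNA of sorted B cells, in 3 groups of 2 by the array titles, where "-rep" marks replicate 2. The deposited values are linear intensities of probe sets. The submitters' processing notes name MAS5, but its version is not given in the sources used here. So small a number of arrays limits the precision of all values.

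Gene names came from the annotation table of the platform: 34945 probe sets carried 1 gene symbol, 932 several and 9160 none, besides 64 controls, and no symbol needed updating. Groups were compared with limma 3.58.1 in R 4.3.3 (1 coefficient for each group, 3 residual degrees of freedom, eBayes with a trend, two-sided, Benjamini-Hochberg adjustment, threshold 0.05) on log2(signal + 16) of the brightest probe set per gene, after a filter at percentile 40 of the mean log2 level of all probe sets, which 11696 of 18193 genes passed. The level adjustment used a lowess curve of span 0.2. Promoters came from a RefSeq table of build GRCm38.p6. Python 3.11.15 with matplotlib 3.10.9 drew the figures.

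Named genes were the core and structural subunits, the tissue isoforms, and per complex the 3 largest called changes in each direction without overlap between groups; up to 3 genes of each other list were named by wild-type mean. Genes named beyond that rule, such as Ndufaf5, Atp5md, Atp5o, Ndufab1 and ND5, were chosen after their values were seen. Members and lists were chosen with earlier results of these data known. The fits were also run on simulated data with 11696 genes, some of which were given log2 changes of 1, 2, 3 and 4. In the fit between the Igκ+ groups 18%, 52%, 78% and 92% of the changed genes were found, with 5 false calls. For the wild-type groups these values were 14%, 74%, 68%, 90% and 8. The Benjamini-Hochberg cut-off depends on how many genes differ. The simulated shares of the Igκ+ fit therefore do not describe what it could call in the deposited signals. There 49.8% of all genes were called lower and 26.1% higher, and Ndufc1 was called at a log2 difference of 0.37. Alternatives changed the pseudocount to 1 or 64, dropped the filter, moved it to percentile 60 or to the wild-type arrays, or used quantile normalization, median centring, scaling on the 18 spiked control probe sets, the level adjustment, the mean of all probe sets of a gene, a fit of the compared arrays alone, the replicate number as a block, eBayes with no trend, and leaving out each array in turn.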

Additional observations from a re-analysis of the deposited data

How the results depend on the processing

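In TAK1-deficient against wild-type Igκ+ cells, the number of members called higher, 3, was 8 without a filter, 5 with quantile normalization, 0 with median centring, 0 with spiked-control scaling, 15 with the level adjustment and 1 to 3 with an array left out, with 1 without the first TAK1-deficient or the second wild-type Igκ+ array. The number called lower, 74, was 33 with the level adjustment and 69 to 75 with an array left out. The median of -1.49 was -1.26 with quantile normalization, -3.87 with median centring, -4.73 with spiked-control scaling, -0.24 with the level adjustment and -1.62 to -1.39 with an array left out; the median over all genes tested was -1.10, -3.08, -3.72 and 0.03 under the same 4 settings. Over all genes tested, 26.1% were called higher, and 48.4% without a filter, 18.8% with quantile normalization, 11.5% with median centring, 8.44% with spiked-control scaling and 24.7% with the level adjustment; 49.8% were lower, and 18.0% with that adjustment. The cause of these shifts was not tested.

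Against wild-type Igλ+ cells, the 2 members called higher were 7 without a filter, 1 with the filter at percentile 60, 4 with quantile normalization, 0 with median centring, 0 with spiked-control scaling, 12 with the level adjustment and 1 to 2 with an array left out, with 1 without the first TAK1-deficient array; the 77 lower were 33 with the level adjustment and 71 to 77 with an array left out. The median of the members was -1.27 with quantile normalization, -3.77 with median centring, -4.57 with spiked-control scaling, -0.28 with the level adjustment and -1.67 to -1.46 with an array left out. Of all genes tested, 25.8% were called higher in this comparison. The share was 47.1% without a filter, 10.7% with the filter at percentile 60 and 18.9% with quantile normalization. It was 10.9% with median centring, 7.87% with spiked-control scaling and 23.8% with the level adjustment. Of all genes 50.5% were lower, and 19.0% with the level adjustment. Between the wild-type groups 0 members were called by limma under the 12 alternatives run, and the median was -0.12 with median centring, -0.16 with spiked-control scaling and -0.09 to 0.12 with an array left out; the level adjustment was not run there.

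Of the named members, these changed sign between TAK1-deficient and wild-type Igκ+ cells. Only those called in the fit reported or in the alternative are listed. With the level adjustment Atp5a1 was at 0.82, Atp5c1 0.37, Cox5b 0.41, Cox7a1 -0.73, Cox7a2 0.68, Cox7c 0.97, Ndufv2 0.66, Sdha 0.0060, Sdhb 0.12, Uqcr10 0.081, Uqcrb 0.47, Uqcrc2 1.19 and Uqcrh 0.077. With the mean of all probe sets Atp5g1 was at 0.29, Ndufc1 -0.31 and Uqcrq 0.67. With spiked-control scaling Cox6a2 was at -0.39, Cox7a1 -1.33 and Ndufc1 -3.06, with quantile normalization Cox7a1 -1.31 and Uqcrc2 0.50, and with median centring Cox7a1 -1.14 and Ndufc1 -2.01. Of the other values of named members in this comparison, 801 kept their side of the threshold. A further 28 kept the direction but fell short of the threshold, and 20 kept it and newly passed the threshold. Between the wild-type groups all 826 values stayed uncalled. A change of sign between uncalled values was not counted. Among the 801, only called values are thus known to have kept their direction, and the 826 do not describe direction.

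Whether arrays with the same replicate number were prepared together is not given, and the values here cannot decide it. The replicate differences of the TAK1-deficient group correlated at 0.01 and 0.03 with those of wild-type Igκ+ and Igλ+ cells over 11696 genes. Those of the 2 wild-type groups correlated at 0.22. The granulocyte sum was higher on the first array of both wild-type groups, with 5379 and 338 in Igκ+ and 38324 and 338 in Igλ+ cells. With the replicate block 73 members were lower and 3 higher against wild-type Igκ+ cells, with a median of -1.49, and 76 and 2 against wild-type Igλ+ cells. Signal over background limits the tissue isoforms and other dim probe sets, and groups of 2 arrays limit what can be called.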
